A study of Homo sapiens with 7 samples.

Results

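The miR-506 to miR-514 cluster is a run of microRNA genes on the X chromosome, and its assays on the TaqMan card were taken by their names, which are miR-506, miR-507, miR-508, miR-509, miR-510, miR-513 or miR-514 with any suffix. The card holds 8 such assays among 377 for human microRNAs, and none carries the name miR-514. The cluster itself was selected on earlier results of the same 7 cards, namely the Ct of its assays and the lower level of some of them in the polymetastatic lines, so that every level and every difference between the groups is given below as a description and supports nothing further.

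All 7 lines descend from MDA-MB-435-GFP, an established human line that carries green fluorescent protein and was kept under G418. Cells from a visible lung metastasis (L1-R1) and from the part of the same lung without one (L1Mic-R1) were injected into athymic female mice, and new lines were grown from the lungs that these cells colonized. The 3 L1-R2 lines came from oligometastatic animals given L1-R1 cells and the 4 L1Mic-R2 lines from polymetastatic animals given L1Mic-R1 cells, 1 line from each of 7 animals. The labels name a mammary injection and SYBR chemistry, whereas the methods of the study describe tail vein injection and TaqMan assays. The 3 L1-R2 lines share 1 source culture and so do the 4 L1Mic-R2 lines, which limits the lines as replicates of a metastatic state.

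A microRNA is cut from a hairpin precursor, and its bases 2 to 8, the seed, guide it to messenger RNAs. The miR-506 to miR-514 genes are known from testis and from cells of the melanocyte lineage, where the cluster is abundant in melanoma and has been tied to the growth of melanocytes. MDA-MB-435 was long used as a breast cancer line and was later traced to a melanoma line. Its melanocyte-linked microRNAs were present on these cards. MiR-204 was detected in 7 lines, at a raw Ct from 25.79 to 26.92, and miR-211 in 5 lines, with its lowest raw Ct at 27.49. Of 7 assays for epithelial microRNAs 5 were detected in at least 1 line. MiR-200c and miR-200b were detected in 7 lines, with raw Ct from 30.10 to 35.46 and from 32.57 to 36.76. Detection came to 4 lines for miR-200a, 3 for miR-429, 2 for miR-203 and 0 for miR-141 and miR-205. Of the blood microRNAs 2 of 4 were detected in at least 1 line, of the muscle microRNAs 2 of 3 and of the neural microRNAs 4 of 6, and 0, 0 and 1 of them in all 7 lines.

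In the RefSeq annotation of GRCh38.p14 the cluster holds 15 microRNA genes, all on the minus strand of chrX:147189704-147284728, a span of 95025 bases. The card reaches 9 of these genes. The other 6 are MIR513B, MIR513C, MIR514B and the 3 copies of MIR514A. The genes from MIR513C to MIR509-1 lie within the span of the long noncoding RNA gene LOC105373347, and MIR510 and the MIR514A copies lie beyond it. The older assay names of 3 members carry no arm or copy letter and were matched to miR-506-3p, miR-510-5p and miR-513a-5p. The mature sequences follow in order of position, since the results turn on how alike the members are, with the seed in capitals.
miR-513-5p: uUCACAGGgaggugucau
miR-506: uAAGGCACccuucugaguaga
miR-507: uUUUGCACcuuuuggagugaa
miR-508-3p: uGAUUGUAgccuuuuggaguaga
miR-508-5p: uACUCCAGagggcgucacucaug
miR-509-5p: uACUGCAGacaguggcaauca
miR-509-3-5p: uACUGCAGacguggcaaucaug
miR-510: uACUCAGGagaguggcaaucac

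The only members with the same seed were miR-509-5p and miR-509-3-5p, which share their first 10 bases and differ by 3 single-base edits over their whole length. MiR-510 has another seed, but holds a run of 11 bases in common with miR-509-5p and of 10 with miR-509-3-5p. MiR-507 and miR-508-3p have different seeds and share a run of 11 bases. The miR-509 sequences arise from neighbouring copies. MiR-509-5p is encoded by MIR509-1 (chrX:147260532-147260625) and MIR509-2 (chrX:147258760-147258850), which cannot be told apart by its sequence, and miR-509-3-5p by MIR509-3 (chrX:147259652-147259726) between them. The gaps between these genes are 801 and 805 bases. The hairpins of MIR509-1 and MIR509-3 are shown with the measured arm in capitals, and the hairpin of MIR508 (chrX:147236913-147237027) with both of its measured arms, of which the first is miR-508-5p.
MIR509-1: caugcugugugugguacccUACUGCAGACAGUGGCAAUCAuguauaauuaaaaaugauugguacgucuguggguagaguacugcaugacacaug
MIR509-3: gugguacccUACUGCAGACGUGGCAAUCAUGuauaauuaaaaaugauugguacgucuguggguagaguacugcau
MIR508: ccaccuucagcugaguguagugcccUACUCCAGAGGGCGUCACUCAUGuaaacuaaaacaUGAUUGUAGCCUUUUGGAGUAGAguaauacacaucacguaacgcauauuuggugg

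Each card gives, for an assay, a threshold cycle (Ct), the PCR cycle at which fluorescence crosses a set level. A step of 1 cycle is read as a step of 1 on a log2 scale, which assumes that the product doubles in each cycle. The more RNA, the lower the Ct, and an Undetermined well was set to 40. The member assays were read in 1 well per card and 1 card was run per line, so that the SD within a group joins the spread between lines and the error of the PCR. The cards are numbered 1 to 3 for L1-R2 and 4 to 7 for L1Mic-R2, so that card order cannot be told apart from group. Over the 7 cards between 160 and 184 of the 377 microRNAs were detected, that is, had a raw Ct below 38. In RNA from whole cultures, fewer cells that express a microRNA and less of it per cell cannot be told apart.

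Of the 8 assays 6 were detected in all 7 lines. These were miR-508-3p, miR-509-5p, miR-506, miR-509-3-5p, miR-510 and miR-508-5p, in order of mean raw Ct. MiR-513-5p was detected in 2 lines, L1-R2 line 4T (raw Ct 36.53) and L1-R2 line 3T (36.77), and was Undetermined in the other 5. MiR-507 gave a Ct in 1 line, L1Mic-R2 line 8T, at 38.93, and counted as detected in 0. The value closest to the limit on the inside was that of miR-508-5p in L1Mic-R2 line 3T, 37.97. With a limit of 35 in place of 38, 3 of the 8 assays were detected in all lines, miR-508-3p, miR-509-5p and miR-506. Detection was asked over all lines without regard to group.

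**Figure D1:**
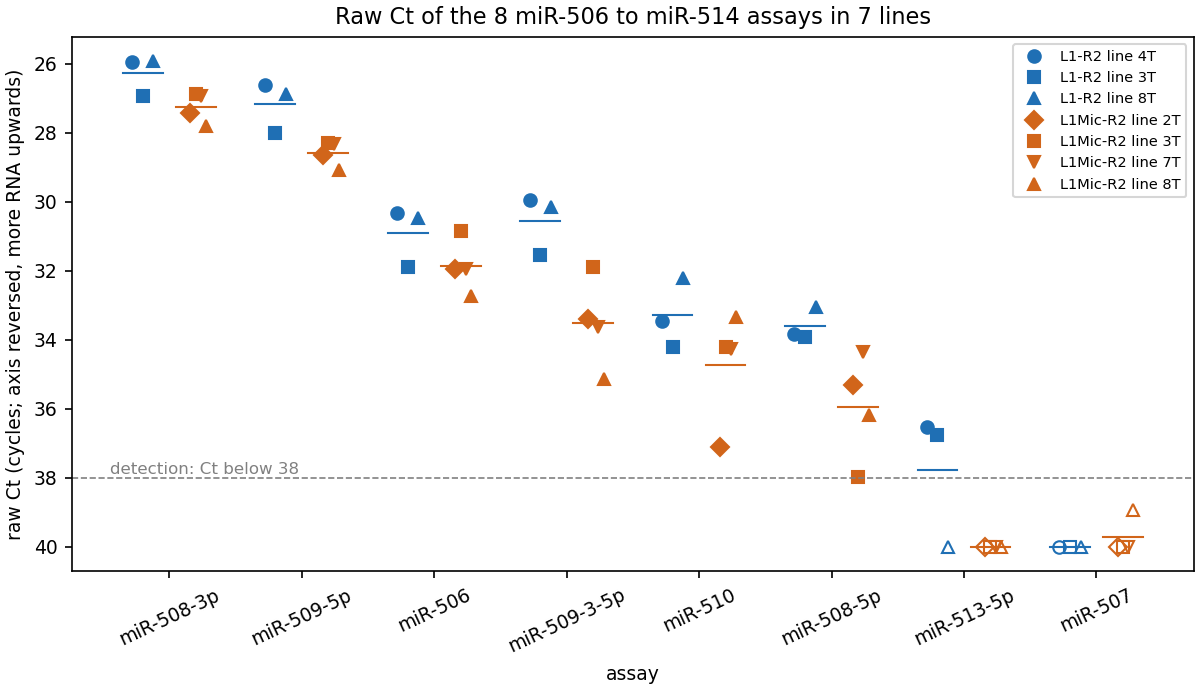
Raw Ct in cycles (vertical axis, reversed so that more RNA lies higher) of the 8 assays in the 3 L1-R2 lines (blue) and the 4 L1Mic-R2 lines (orange), with short lines for the group means and open symbols for values not below 38. MiR-508-3p and miR-509-5p lie highest, and the gap between the groups is widest for miR-509-3-5p and miR-508-5p.

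MiR-508-3p, the 3′ arm of MIR508, had the earliest Ct of the cluster and ranked 36 of 377 by mean raw Ct. Its raw Ct was 25.95 (4T), 26.95 (3T) and 25.92 (8T) for the oligometastatic lines and 27.42 (2T), 26.87 (3T), 26.93 (7T) and 27.82 (8T) for the polymetastatic ones. The L1-R2 line 3T thus lay among the L1Mic-R2 lines. After quantile normalization across the 7 cards the mean was 26.36 ± 0.24 (SD, n = 3) for L1-R2 against 27.19 ± 0.26 (SD, n = 4) for L1Mic-R2, and the groups no longer overlapped.

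MiR-509-5p came next, at rank 50. Its raw Ct was 26.62 (4T), 28.02 (3T) and 26.88 (8T) for the oligometastatic lines and 28.64 (2T), 28.31 (3T), 28.33 (7T) and 29.08 (8T) for the polymetastatic ones. Every L1-R2 line lay below every L1Mic-R2 line, line 3T by the smallest margin, 0.29 cycles. Normalized, the means were 27.34 ± 0.64 (SD, n = 3) and 28.39 ± 0.14 (SD, n = 4).

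MiR-509-3-5p, from the middle copy and with the same seed, gave later and more scattered values. Its raw Ct was 29.96 (4T), 31.54 (3T) and 30.15 (8T) for the oligometastatic lines and 33.39 (2T), 31.89 (3T), 33.62 (7T) and 35.13 (8T) for the polymetastatic ones. The L1Mic-R2 lines were later throughout, with line 8T the latest and line 3T only 0.35 cycles past the last L1-R2 line. The normalized means were 30.58 ± 0.66 (SD, n = 3) and 33.29 ± 0.80 (SD, n = 4).

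MiR-506, here its 3′ arm, was at 30.32 (4T), 31.90 (3T) and 30.47 (8T) for the oligometastatic lines and 31.95 (2T), 30.84 (3T), 31.96 (7T) and 32.72 (8T) for the polymetastatic ones. In both groups line 3T fell within the range of the other group. The normalized means, 31.14 ± 0.96 (SD, n = 3) and 31.72 ± 0.46 (SD, n = 4), lay closer together than the SD in L1-R2.

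MiR-508-5p, the other arm of MIR508, was at 33.85 (4T), 33.92 (3T) and 33.04 (8T) for the oligometastatic lines and 35.33 (2T), 37.97 (3T), 34.36 (7T) and 36.19 (8T) for the polymetastatic ones. The groups did not overlap, and L1Mic-R2 line 3T was the latest of its group. The normalized means were 33.90 ± 0.46 (SD, n = 3) and 35.66 ± 1.28 (SD, n = 4).

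MiR-510 was at 33.45 (4T), 34.22 (3T) and 32.21 (8T) for the oligometastatic lines and 37.10 (2T), 34.23 (3T), 34.28 (7T) and 33.34 (8T) for the polymetastatic ones. L1Mic-R2 line 8T, among the latest for the other members, was early here, and line 2T was late. The groups overlapped. The normalized means of 33.52 ± 1.04 (SD, n = 3) and 34.47 ± 1.63 (SD, n = 4) differed by less than either SD.

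Different assays amplify with different efficiency, so the order of their Ct is not an order of amounts. As an order of Ct it was partly stable. MiR-509-5p was later than miR-508-3p in 7 of 7 lines, by 1.11 ± 0.30 cycles of normalized Ct (SD, n = 7), although the ranges of both over the lines overlapped. MiR-506 was later than miR-509-5p in 7 of 7 lines, by 3.53 ± 0.41 cycles (SD, n = 7), and these ranges did not overlap. The later neighbours had no fixed order. MiR-509-3-5p was later than miR-506 in 4 of 7 lines, which are the 4 L1Mic-R2 lines, miR-510 was later than miR-509-3-5p in 6, and miR-508-5p later than miR-510 in 5.

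Averaged over the 6 detected members, the raw Ct was 30.02 (4T), 31.09 (3T) and 29.78 (8T) for the oligometastatic lines and 32.31 (2T), 31.68 (3T), 31.58 (7T) and 32.38 (8T) for the polymetastatic ones. The groups did not overlap. L1-R2 line 3T had the latest average of its group. The whole cards moved in the same direction to a lesser extent, with a mean raw Ct over the 377 microRNAs from 35.44 to 35.63 in L1-R2 and from 35.64 to 36.00 in L1Mic-R2. The part of this shift in the raw values of the members was not tested. After quantile normalization, which gives every card the same distribution, the averages of the 6 members were still apart, from 30.00 to 31.20 in L1-R2 and from 31.60 to 32.18 in L1Mic-R2.

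The difference between the groups was read from 1 limma fit of 40 minus normalized Ct over the 181 microRNAs for which 3 or more lines gave a raw Ct below 38. A negative log2 difference stands for less RNA in L1Mic-R2. It was negative for all 6 members in the fit, with a median of -1.0, against a median of 0.06 over the 181. The order ran from miR-509-3-5p (-2.71, standard error 0.53) through miR-508-5p (-1.75, standard error 0.72), miR-509-5p (-1.05, standard error 0.31), miR-510 (-0.95, standard error 0.99) and miR-508-3p (-0.83, standard error 0.21) to miR-506 (-0.58, standard error 0.50). The difference of miR-508-5p was -1.13 without L1Mic-R2 line 3T and -0.97 with every Ct limited to 35. As folds, if the product doubles in each cycle, the differences after quantile normalization are a level 6.55 times lower for miR-509-3-5p and 1.49 times lower for miR-506.

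Of the 6 members 1, miR-509-3-5p, was called lower at an adjusted p under 0.05 (limma, Benjamini-Hochberg over the 181), beside 1.66% of all microRNAs called lower and 3.31% called higher. The groups did not overlap, with the L1Mic-R2 lines lower, in 4 of the 6, miR-508-3p, miR-508-5p, miR-509-5p and miR-509-3-5p, beside 10.5% of all microRNAs apart in that direction and 8.84% in the other. The cluster was chosen with this contrast known, and nothing is read from these counts. The call was lost in each of the 7 fits that left out 1 line. With each line left out in turn 0 members passed the adjusted threshold of limma and between 2 and 4 of the 6 the unadjusted one. Over all microRNAs in these fits, 170 to 178 in number, between 28 and 39 passed the unadjusted one. The log2 difference of miR-509-3-5p lay between -3.18 (without L1-R2 line 3T) and -2.42 (without L1Mic-R2 line 8T).

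**Figure D2:**
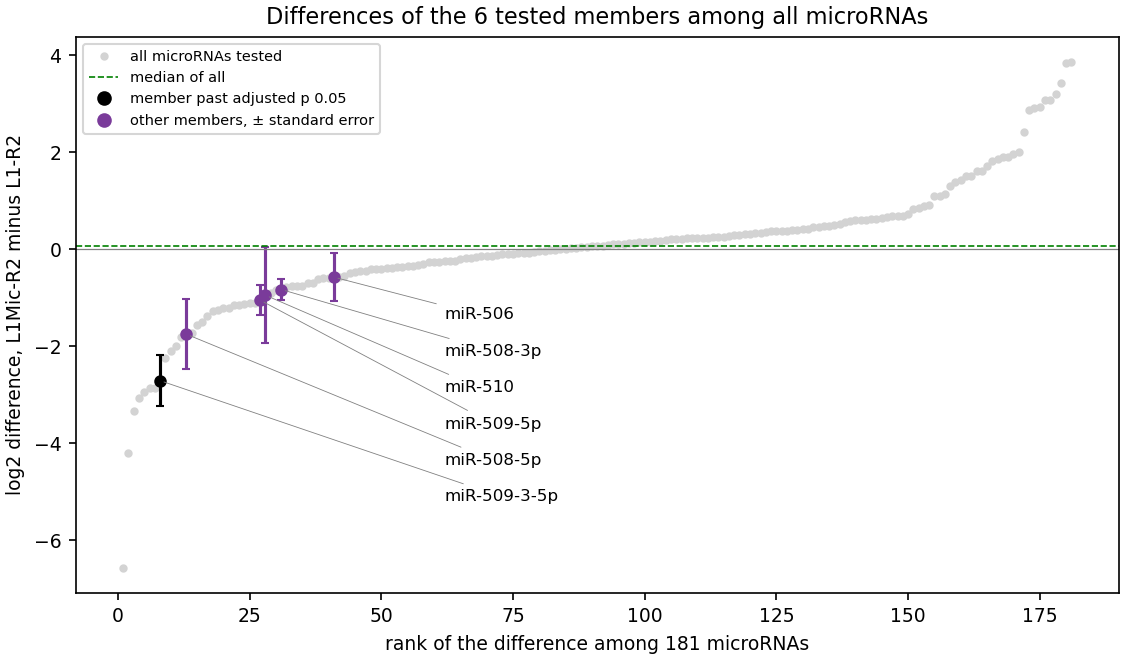
Log2 difference of L1Mic-R2 minus L1-R2 (vertical axis) of 181 microRNAs against its rank (horizontal axis), from the limma fit on quantile-normalized Ct, with the 6 members marked with their standard errors. All 6 lie below 0 and below the median of all microRNAs (0.06), and miR-509-3-5p, in black, at rank 8 from the lowest, is the only one past the adjusted threshold.

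The differences moved with the scale. With Ct taken relative to RNU44 and RNU48, small RNAs used as references, the median over the 181 microRNAs was 0.56, and the members ran from -2.15 for miR-509-3-5p to -0.17 for miR-506 and -0.18 for miR-508-3p. On that scale the groups did not overlap, with L1Mic-R2 lower, in 2 of the 6, both of them miR-509 assays, beside 4 of all 181 microRNAs. With raw Ct the median was -0.25 and the members ran from -2.96 to -0.97. Relative to the median of each scale, the difference of miR-509-3-5p was -2.77 after quantile normalization and -2.71 for raw Ct and both kinds of reference RNA, and that of miR-506 was -0.63 and -0.73. All 6 members were below the median of all microRNAs on each of the 5 scales compared. Apart from quantile normalization these scales differ only by a constant per card. Values relative to the median are therefore the same on them by construction, and their likeness is no separate result. MiR-509-3-5p was called on 1 of the 5 scales, after quantile normalization.

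**Figure D3:**
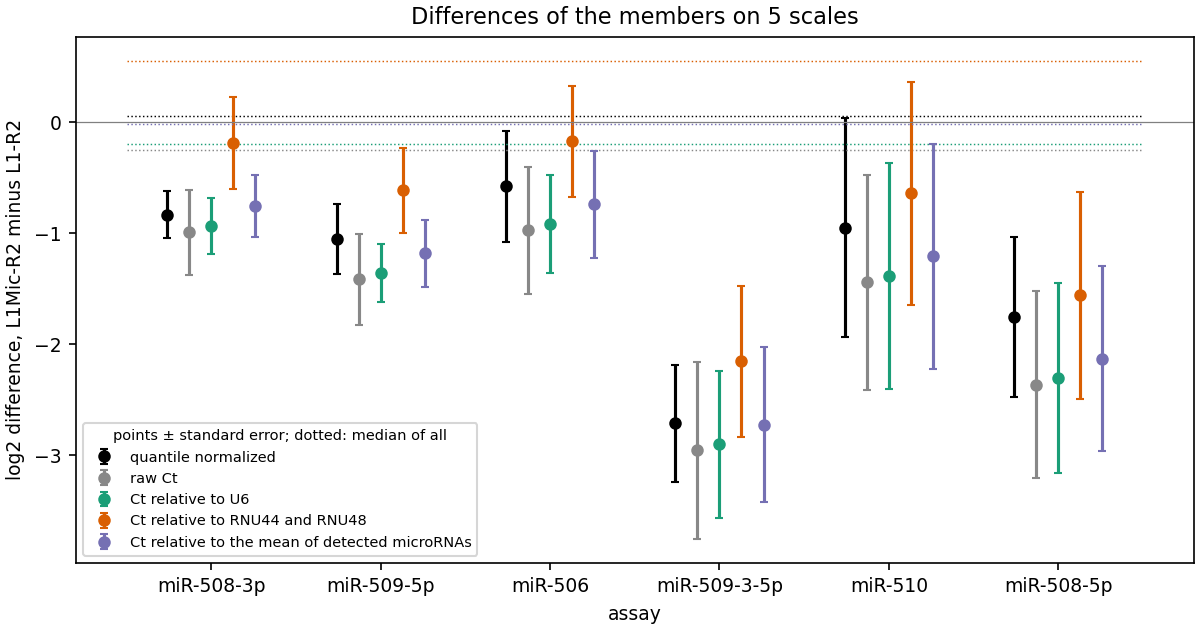
Log2 difference of L1Mic-R2 minus L1-R2 (vertical axis, points with standard errors) of the 6 members on 5 scales, in color, with dotted lines for the median of all 181 microRNAs on each scale. The reference of RNU44 and RNU48 (median 0.56) shifts every member upwards, and miR-509-3-5p has the lowest value on each scale.

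The 2 assays of one seed were set against each other within each line, where any shift common to a card cancels in the raw values. MiR-509-3-5p minus miR-509-5p was 3.34 (4T), 3.52 (3T) and 3.27 (8T) cycles of raw Ct for the oligometastatic lines and 4.75 (2T), 3.59 (3T), 5.30 (7T) and 6.05 (8T) for the polymetastatic ones. The L1-R2 lines lay close together, and all L1Mic-R2 lines were higher, line 3T by 0.06 cycles only. The mean was 3.38 ± 0.13 (SD, n = 3) for L1-R2 against 4.92 ± 1.04 (SD, n = 4) for L1Mic-R2. On normalized Ct the means were 3.23 ± 0.22 (SD, n = 3) and 4.89 ± 0.67 (SD, n = 4). The pair belongs to the contrast that chose the cluster and was given no test. How far either assay reads the other sequence was not tested.

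The arms of MIR508 come from 1 transcript, and their distance in Ct was 7.90 (4T), 6.97 (3T) and 7.12 (8T) cycles (miR-508-5p minus miR-508-3p, raw) for the oligometastatic lines and 7.90 (2T), 11.10 (3T), 7.44 (7T) and 8.37 (8T) for the polymetastatic ones. The groups overlapped, and L1Mic-R2 line 3T was alone above 10 cycles. In that line miR-508-3p was at 26.87, the earliest of its group, and miR-508-5p at 37.97, the value next to the limit of detection.

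The distance of miR-506 from miR-508-3p was steadier. MiR-506 minus miR-508-3p lay between 3.97 and 5.04 cycles of raw Ct in the 7 lines, with means of 4.62 ± 0.30 (SD, n = 3) for L1-R2 against 4.61 ± 0.48 (SD, n = 4) for L1Mic-R2. MiR-509-5p minus miR-508-3p lay between 0.67 and 1.43. Its means were 0.90 ± 0.20 (SD, n = 3) and 1.33 ± 0.10 (SD, n = 4), apart on raw Ct and overlapping after normalization. MiR-510 minus miR-509-5p varied more, from 4.26 in L1Mic-R2 line 8T to 8.46 in L1Mic-R2 line 2T.

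**Figure D4:**
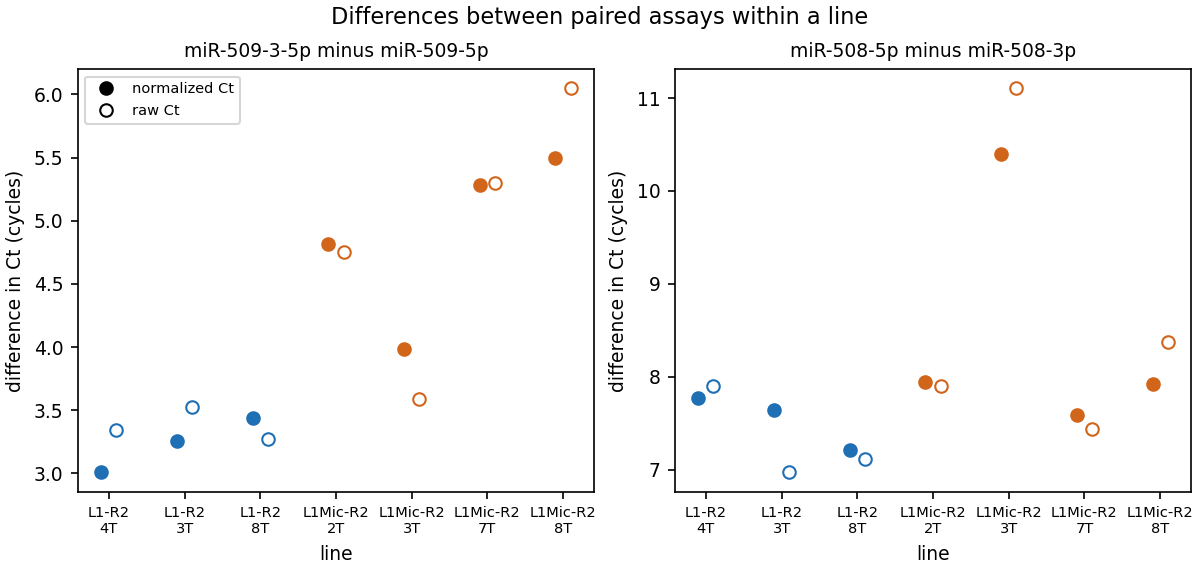
Difference in Ct in cycles (vertical axes) between miR-509-3-5p and miR-509-5p (left) and between miR-508-5p and miR-508-3p (right) in each line, with filled points for normalized and open points for raw Ct, L1-R2 in blue and L1Mic-R2 in orange. The 4 L1Mic-R2 lines lie above the 3 L1-R2 lines on the left, and on the right L1Mic-R2 line 3T is the highest, at 11.10 cycles of raw Ct.

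Across the 7 lines the members' profiles were compared by Pearson's r of normalized Ct, as a description over lines that share 2 origins and the same cards. All 15 pairs of the 6 members had a positive r, from 0.13 (miR-506 with miR-508-5p) to 0.92 (miR-509-5p with miR-509-3-5p). The median was 0.60, and over all pairs of the 135 microRNAs detected in every line it was -0.01. The cluster was chosen with its lower level in L1Mic-R2 known, and a shared difference between the groups raises r. Nothing is read from the distance between these medians. Without 1 line the median of the 15 pairs ran from 0.41 (without L1-R2 line 8T) to 0.76 (without L1Mic-R2 line 3T). MiR-509-5p and miR-509-3-5p were each other's closest profile among the 134 others. After the group means were taken out, the median of the 15 pairs was 0.40, beside -0.01 over all pairs, and 13 of the 15 had a positive r. The highest was that of miR-506 with miR-509-5p, 0.93, followed by miR-506 with miR-509-3-5p, 0.89. MiR-508-5p went with none of the others there, with r between -0.61 and 0.17.

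**Figure D5:**
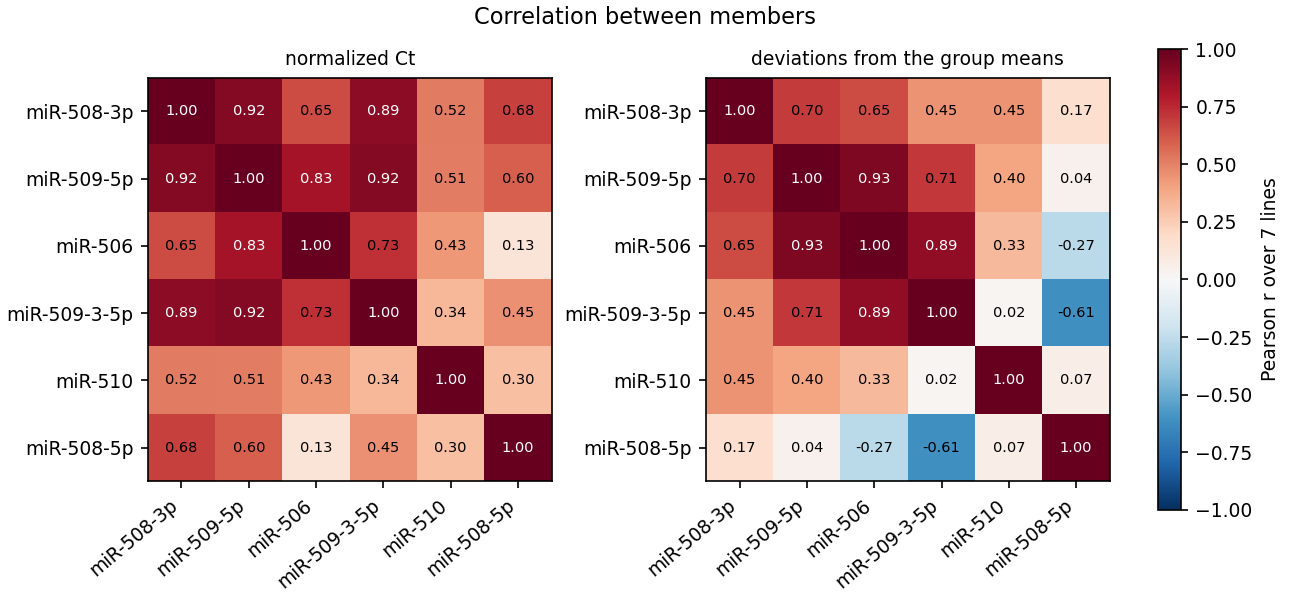
Pearson's r over 7 lines between the 6 members, for normalized Ct (left) and for deviations from the group means (right), on a color scale from blue for negative to red for positive values. MiR-506 and both miR-509 assays stay above 0.70 with each other on both sides, and miR-508-5p falls to -0.61 with miR-509-3-5p on the right.

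Outside the cluster, among the 129 other microRNAs detected in every line, the profile most like that of miR-508-3p was miR-192 (r = 0.93), followed by miR-181a (0.92), miR-425 (0.90), miR-30b (0.88) and miR-146b-5p (0.87). For miR-509-5p it was miR-181a (0.83), and next came miR-30c, miR-29a, miR-30b and miR-138. For miR-509-3-5p it was miR-30c (0.90), and next came miR-26a, miR-181a, miR-146b-5p and miR-30b. In these 3 lists the microRNAs other than miR-29a and miR-138 have groups that do not overlap, and their r includes the difference between the groups. Without the group means the r of miR-509-3-5p was 0.53 with miR-30c, 0.08 with miR-181a and -0.22 with miR-30b. MiR-506 was closest to miR-362-3p, an X-linked microRNA (r = 0.86, and 0.86 without the group means), then to miR-29a, miR-449b, miR-138 and miR-502-3p. MiR-510 was closest to miR-105, another X-linked microRNA (0.80, and 0.84 without the group means), then to miR-483-5p, let-7d, miR-625 and miR-582-5p. With 1 line left out these r fell as low as 0.58, 0.66, 0.55, 0.09 and 0.01 in the same order. MiR-508-5p was closest to miR-425 (0.85), then to miR-598, miR-29c, miR-30b and miR-532-5p. Of the 129 microRNAs compared, 17 lie on the X chromosome only, miR-502-3p and miR-532-5p among them. For each member other than miR-506 and miR-510, the single closest microRNA is not X-linked.

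The low values of the members were set beside the rest of the X chromosome. Of 42 assays whose RefSeq genes lie on the X chromosome only, outside the cluster, 25 entered the fit. In L1Mic-R2, 0 of the 25 were called lower and 2 higher by limma, beside 1.66% and 3.31% of all microRNAs. The 2 were miR-221 (log2 difference 2.41) and miR-542-5p (2.88). MiR-542-5p was detected in 3 lines only, with raw Ct from 35.86 to 40, so its difference includes values set to 40. The groups were apart in 1 with L1Mic-R2 lower, miR-660, and in 5 with L1Mic-R2 higher, beside 10.5% and 8.84% of all microRNAs. The median log2 difference of the 25 was 0.06, equal to that of all microRNAs, beside the -1.0 of the cluster. The cluster was chosen with this contrast known, and the X list was set by position, also with earlier results of these data known. The comparison is a description only. The nearby miR-888 to miR-892 cluster, known from the epididymis, was nearly silent, with 2 of 5 assays detected in any line and 0 in all. MiR-105 in Xq28 was detected in 7 lines at a log2 difference of -0.05. The melanocyte-linked pair was lower in L1Mic-R2 by its mean without a call, with log2 differences of -0.59 (standard error 0.22) for miR-204 and -6.57 (standard error 2.97) for miR-211, and the groups overlapped in both. MiR-211 was detected in 5 lines, with raw Ct from 27.49 to 40, so its difference includes values set to 40.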

How the data were processed

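MicroRNA was measured on 1 TaqMan Human MicroRNA Array A card for each of 3 L1-R2 and 4 L1Mic-R2 lines. The authors deposited an average Ct for each assay, in cycles, with 40 for an Undetermined well. According to the methods, the card data were imported and normalized in SDS RQ Manager with a set threshold, and quantile normalized data were also made. The deposited Ct used here was not quantile normalized, since its mean over the microRNAs ran from 35.44 to 36.00 between cards, and it is called raw Ct. Groups and line numbers follow the labels, and the file names exchange numbers 3 and 4 of L1-R2.

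The Ct of 381 assays was quantile normalized and fitted with limma 3.58.1 in R 4.3.3 over the 181 microRNAs with a raw Ct below 38 in at least 3 lines, with Benjamini-Hochberg adjustment over all of them. The cluster's members and the lists were chosen with earlier results of these data known. Each member was to be described, and for each tested member the 5 other microRNAs with the highest r were named. Sequences and coordinates are those of RefSeq, in which 327 of 377 microRNAs had a match by name. Alternatives were other scales, limits of Ct, filters, fits, a replicate block and leaving out each line. The correlations without group means and the count of separate groups on other scales were chosen after seeing the data. The fit was tried on 100 simulated sets in which 20 microRNAs were changed by 3 on the log2 scale. It recovered 71.35% of these changes, and 5.53% of its calls were false on average. Without any change, 9 of the 100 sets still gave a call. The number of cards limits the precision.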

Additional observations from a re-analysis of the deposited data

Results flagged for a closer look

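The distance between the arms of MIR508 was out of range in 1 polymetastatic line, 3T. On normalized Ct, miR-508-5p minus miR-508-3p was 10.40 cycles in that line and 7.95, 7.59 and 7.92 in lines 2T, 7T and 8T, and the gap took up 0.871 of the range of the group, above the limit of Dixon's test for 4 samples. On raw Ct it took up 0.745, below that limit, in a comparison added after seeing the data. Of 11 sets of values examined in this way 1 stood apart, where chance flags about 1 in 20.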

How the results depend on the processing

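Over all microRNAs, 9 were called in the main fit and 35 had an unadjusted p under 0.05 in limma. The count was 14 among those detected in all 7 lines, 21 with trend and robust, and 0 with RNU44 and RNU48 (37 unadjusted) and without a detection filter (41). It ran from 0 to 4 without 1 line. Of the members 1 was called in the main fit, 2 among microRNAs detected in all lines (miR-508-3p and miR-509-3-5p) and 3 with trend and robust (miR-509-5p besides). The count of members called was 0 for raw Ct (4 unadjusted, beside 38 of all 181 microRNAs) and with RNU44 and RNU48 (1, beside 37). It was also 0 relative to the mean Ct (4, beside 44), with Ct limited to 35 (4, beside 32) and without a detection filter (5 of 8, beside 41 of 238). It was 0 in each of the 7 fits without 1 line. With U6 the 1 call was miR-509-5p. The members with groups apart numbered 4, beside 19 of all 181 microRNAs apart in that direction. With RNU44 and RNU48 they numbered 2, beside 4 of 181, in a check of scales chosen after seeing the data.

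With a replicate block for the line number, 0 microRNAs (19 unadjusted) and 0 members (1 unadjusted) were called by the labels' numbers, and 0 (27) and 0 (3) by those of the file names, in fits with 1 residual degree of freedom. The block by the labels' numbers reversed miR-510 to a log2 difference of 0.15, and that by the file names left it at -0.47. Only lines 3T and 8T share a number. Their deviations from the group means correlated at -0.04 and -0.20 by the labels, and at 0.02 and -0.20 by the file names. No pairing was seen, though these few correlations are a weak check. No other member changed direction under any alternative. The log2 differences without 1 line ran from -1.12 (without L1-R2 3T) to -0.26 (L1-R2 4T) for miR-506, from -1.49 (L1-R2 3T) to -0.22 (L1Mic-R2 2T) for miR-510 and from -2.19 (L1Mic-R2 7T) to -1.13 (L1Mic-R2 3T) for miR-508-5p, which was -0.97 with Ct limited to 35. The causes were not tested.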
